A study of Mus musculus with 12 samples.

Results

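The 40 genes described here drive or restrain the cell cycle, and they were taken by symbol from a list of cell cycle and DNA replication genes. All 40 were found among the 23352 gene symbols in the expression tables, and all 40 passed the filter on low values that left 11431 genes for testing. By role they comprised 4 G1 cyclins and their kinases, 4 inhibitors of cyclin-dependent kinases, 12 genes of the G1/S transition and DNA replication, and 20 genes of G2 and mitosis. They were measured in regulatory T cells (Tregs), the Foxp3-expressing CD4+ T cells that restrain immune responses, sorted out of the spleens and lymph nodes of C57BL/6 females. Every group carried Foxp3YFP-Cre on one X chromosome and Foxp3WT on the other, so that the Cre recombinase came from the Foxp3 locus. The HET groups were Ezh2fl/+ and the KO groups were Ezh2fl/fl, and both were sorted into CD62Lhi and CD62Llo cells. No group without Cre was used. The labels give neither the age of the mice, nor whether cells of several mice were pooled, nor whether the sort kept only cells that expressed the Cre allele.

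The cell cycle is driven by cyclin-dependent kinases (CDKs) that are active only when bound to a cyclin. In early G1, D-type cyclins with CDK4 or CDK6 phosphorylate the RB protein and release E2F factors, which switch on the genes for DNA replication. The INK4 inhibitors, among them Cdkn2c (p18) and Cdkn2d (p19), bind CDK4 and CDK6, while Cdkn1a (p21) and Cdkn1b (p27) bind cyclin-CDK complexes. Genes of G2 and mitosis come on later, in cells about to divide. CD62Lhi T cells are mostly resting and CD62Llo T cells mostly activated, and resting T cells are mostly out of cycle. Ezh2 is the catalytic subunit of the Polycomb complex that methylates histone H3 at lysine 27.

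The values are FPKM, the authors' estimate of fragments scaled to transcript length and to the size of the library, so they are per length and can be set side by side between genes. The 11 libraries analysed were 2 of HET CD62Lhi and 3 of each of the other groups. The third HET CD62Lhi library was left out because its label says it had too few reads. Each library had between 10597 and 11024 genes at 1 FPKM or more, and the read depth is unknown. The half-width of the authors' own interval around an FPKM had a median of 6.00% of the value for the replication genes and 14.9% for the mitotic genes. Of the 440 values of the 40 genes, 100 lay outside their own interval, so these intervals were used only as a rough guide to precision. Of the 40 genes, 6 have an annotated pseudogene copy and 15 overlap a gene on the other strand, among them Ccnd3, Mki67, Top2a, Cdkn1a and Mcm7, whose values may include reads of the neighbour.

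The targeted gene was measured at 12.7 and 12.5 FPKM in HET CD62Lhi, 18.2, 17.8 and 20.5 in HET CD62Llo, 9.15, 11.5 and 11.02 in KO CD62Lhi and 12.5, 16.8 and 14.4 in the KO CD62Llo group. No Ezh2 value of a KO fraction reached those of the same HET fraction, but neither difference passed the test (adjusted p = 0.113 in CD62Llo, limma). These values cover the gene as a whole, and the labels do not say which exons were floxed. Foxp3 lay between 75.9 and 96.8 FPKM in the 11 libraries, but other Treg markers moved with the sort. Of 6 tested, Cd3e, Cd4, Ctla4 and Ikzf2 rose in CD62Llo cells of both genotypes, and Foxp3 and Il2ra were not called. The summed FPKM of the 6 was 721 to 797 in HET CD62Lhi and 1005 to 1136 in HET CD62Llo. In KO it was 723 to 756 in CD62Lhi and 879 to 989 in the CD62Llo group. The part of this shift in the cell cycle results was not tested.

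The library labelled KO CD62Llo replicate 3 was closer to the CD62Lhi libraries than to the others of its group. Over all tested genes its correlation with the other KO CD62Llo libraries was 0.949 and 0.950, near the 0.951 between replicates 1 and 2. With the 5 CD62Lhi libraries the correlation of replicate 3 was higher, from 0.953 to 0.963. Without it the counts of called genes among the 40 between fractions in KO stayed at 3 higher and 1 lower, with the same genes, and those between genotypes in CD62Llo cells were 0 and 0.

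Markers of other cells moved with the sort. Of 8 B cell markers tested, 5 fell in CD62Llo cells of HET mice and 6 in those of KO mice, and their summed FPKM ranged over 84.3 to 103 in HET CD62Lhi, 24.3 to 36.6 in HET CD62Llo, 80.98 to 139 in KO CD62Lhi and 27.6 to 67.7 in the KO CD62Llo group. Of 3 myeloid markers tested, 1 rose in HET and 2 rose in KO, with sums of 12.4 to 21.8 in HET CD62Lhi, 49.3 to 103 in HET CD62Llo, 11.6 to 17.03 in KO CD62Lhi and 33.6 to 282 in the KO CD62Llo group, and of the 9 myeloid markers listed only Elane was at 0 throughout. Of 5 markers of CD8 T and NK cells, 3 fell and 1 rose in each genotype, with sums of 41.7 to 47.2 in HET CD62Lhi, 15.4 to 17.8 in HET CD62Llo, 31.98 to 39.3 in KO CD62Lhi and 13.6 to 20.5 in the KO CD62Llo group. None of 5 erythroid markers passed the test, though their sum ran from 4.37 to 317 FPKM between libraries. Of 3 plasma cell markers, 1 rose in each genotype and 1 fell in HET, and of 2 thymocyte markers 1 fell in each genotype. Their part in the results on the cell cycle genes was not tested.

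Called differences between the 2 fractions are given here beside the shares of all tested genes. Of the CDK inhibitors, Cdkn2c and Cdkn2d were called in both genotypes, as was Cdkn1a, which passed the filter on low values only through the CD62Llo groups where it was high, and of the 20 mitotic genes 1 was called in HET and none in KO. In HET cells, 5 of the 40 genes were higher in CD62Llo than in CD62Lhi cells (Cdkn2c, Mcm6, Cdkn1a, Mki67 and Tyms), where 18.8% of all tested genes were higher. Lower were 2, Cdkn2d and Ccnd3, where 8.88% of all tested genes were lower. In KO cells the fraction difference was called higher for 3 genes (Cdkn2c, Cdkn1a and Mcm6), against 11.9% of all genes, and lower for Cdkn2d alone, against 4.26%. These calls are from limma on log2(FPKM + 1) at a Benjamini-Hochberg adjusted p under 0.05. All 4 counts were below what the share of all genes would give for 40 genes, and nothing more is read from these calls. The median log2 change of the 40 genes was 0.18 in HET and 0.13 in KO, beside 0.068 and 0.050 over all tested genes.

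Averaging both genotypes uses all 11 libraries and called more of the 40. The averaged fraction difference was higher for 10 genes (Cdkn2c, Mcm6, Cdkn1a, Tyms, Mcm5, Uhrf1, E2f1, Mcm3, Mki67 and Rrm2), where 25.5% of all genes were higher. It was lower for 4 (Cdkn2d, Ccnd3, Ccnd2 and Ccne1), where 11.6% of all genes were lower. The count of 10 depended on the scale: after quantile normalization or median centring it was 5, with 4 still lower. Both rescalings moved the median of all genes in HET by -0.10 on the log2 scale, and over all genes they turned 2148 higher and 1015 lower calls in HET into 1431 and 1638, or 1522 and 1862. For the 40 genes in HET the split went from 5 higher and 2 lower to 4 and 3 by quantile normalization and 4 and 4 by median centring, and in KO from 3 and 1 to 2 and 1, or 3 and 2. In bulk samples like these, fewer cells in cycle and less RNA per cycling cell cannot be told apart. The labels number the libraries as replicates without saying that they came from separate mice, so p-values measure the spread between these libraries.

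**Figure D1:**
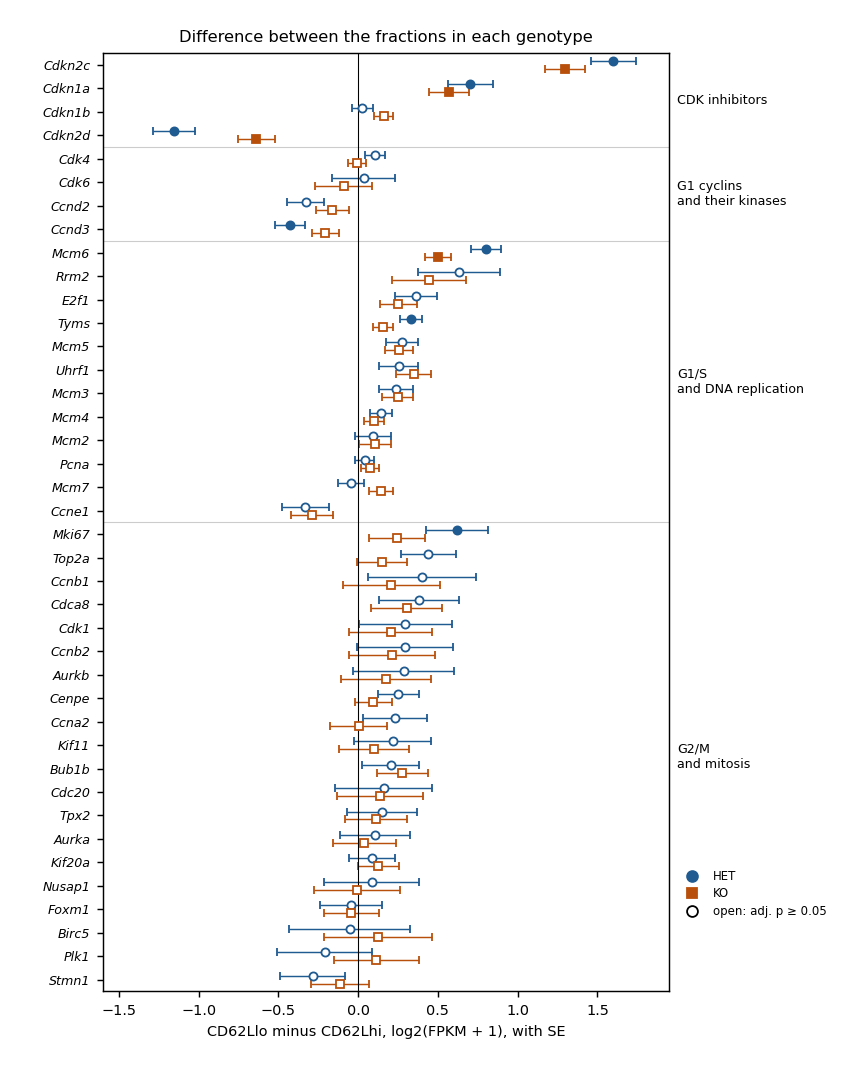
Fraction difference of each of the 40 genes, as CD62Llo minus CD62Lhi on the log2(FPKM + 1) scale (x axis, with SE from limma), by role from top to bottom. Circles are HET and squares are KO, and filled symbols passed an adjusted p of 0.05: Cdkn2c at 1.60 and 1.30 and Cdkn2d at -1.16 and -0.64 lie at the ends, and most mitotic genes have wide bars.

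The CDK inhibitors Cdkn2c and Cdkn2d had the largest differences of the 40 genes on the log2(FPKM + 1) scale in both genotypes, and in opposite directions. By the ratio of group means, Cdkn1a came between them. Cdkn2c (chr4:109660876-109665372, mm10), the INK4 inhibitor p18, was at 2.89 and 2.82 FPKM in HET CD62Lhi, 11.8, 11.5 and 8.95 in HET CD62Llo, 3.66, 3.30 and 3.69 in KO CD62Lhi and 9.21, 12.5 and 9.14 in the KO CD62Llo group. All 6 CD62Llo libraries lay above all 5 CD62Lhi libraries, with no overlap in either genotype. The mean rose 3.77-fold in HET and 2.89-fold in KO, which on the log2(FPKM + 1) scale was 1.60 ± 0.14 SE and 1.30 ± 0.13 SE (adjusted p = 5.71e-05 and 2.16e-04, limma). Cdkn2d (chr9:21288464-21291209), the closely related p19, went the other way. Its level was 65.9 and 58.6 FPKM in HET CD62Lhi, 31.9, 26.4 and 24.3 in HET CD62Llo, 69.9, 71.9 and 56.9 in KO CD62Lhi and 38.95, 43.9 and 43.2 in the KO CD62Llo group, so that every CD62Llo library lay below every CD62Lhi library. The mean was 2.26-fold lower in CD62Llo cells of HET mice and 1.58-fold lower in those of KO mice (log2 difference -1.16 ± 0.13 SE and -0.64 ± 0.12 SE, adjusted p = 2.14e-04 and 0.00544, limma). Per length, Cdkn2d stayed above Cdkn2c in every library. In HET CD62Lhi cells the means were 62.3 ± 5.22 (SD, n = 2) and 2.85 ± 0.0537 (SD, n = 2) FPKM, and in HET CD62Llo cells they were 27.5 ± 3.96 (SD, n = 3) and 10.8 ± 1.57 (SD, n = 3).

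Cdkn1a (chr17:29090986-29100722), the p53-responsive inhibitor p21, was the least abundant of the 40 genes by mean FPKM. It was at 0.382 and 0.733 FPKM in HET CD62Lhi, 1.24, 1.72 and 1.63 in HET CD62Llo, 0.348, 0.319 and 0.573 in KO CD62Lhi and 1.04, 1.24 and 1.01 in the KO CD62Llo group. It reached 1 FPKM in the 6 CD62Llo libraries only, so it entered the test through the group where it was high. The log2 difference was 0.70 ± 0.14 SE in HET and 0.57 ± 0.13 SE in KO (adjusted p = 0.00500 and 0.0138, limma), a scale that understates the 2.74-fold and 2.65-fold differences of the means because the level is near the added 1. The call in HET was lost without HET CD62Lhi replicate 1 (adjusted p = 0.0583). In KO it was lost by quantile normalization (0.153), without KO CD62Lhi replicates 1 (0.0556) or 2 (0.0574), and without KO CD62Llo replicate 2 (0.0533), all adjusted p from limma. Cdkn1b, which encodes p27 and holds quiescent T cells out of cycle, was abundant in every library. It measured 60.8 and 60.7 FPKM in HET CD62Lhi, 66.2, 62.7 and 57.02 in HET CD62Llo, 50.8, 50.5 and 54.6 in KO CD62Lhi and 56.3, 58.3 and 59.999 in the KO CD62Llo group, and its fraction difference did not pass the test in HET (0.026 ± 0.067 SE, adjusted p = 0.809, limma) or in KO (0.16 ± 0.060 SE, adjusted p = 0.108). Cdkn2a and Cdkn2b, the other INK4 genes, did not pass the filter, and stayed at or under 0.421 and 0.419 FPKM in all 11 libraries.

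**Figure D2:**
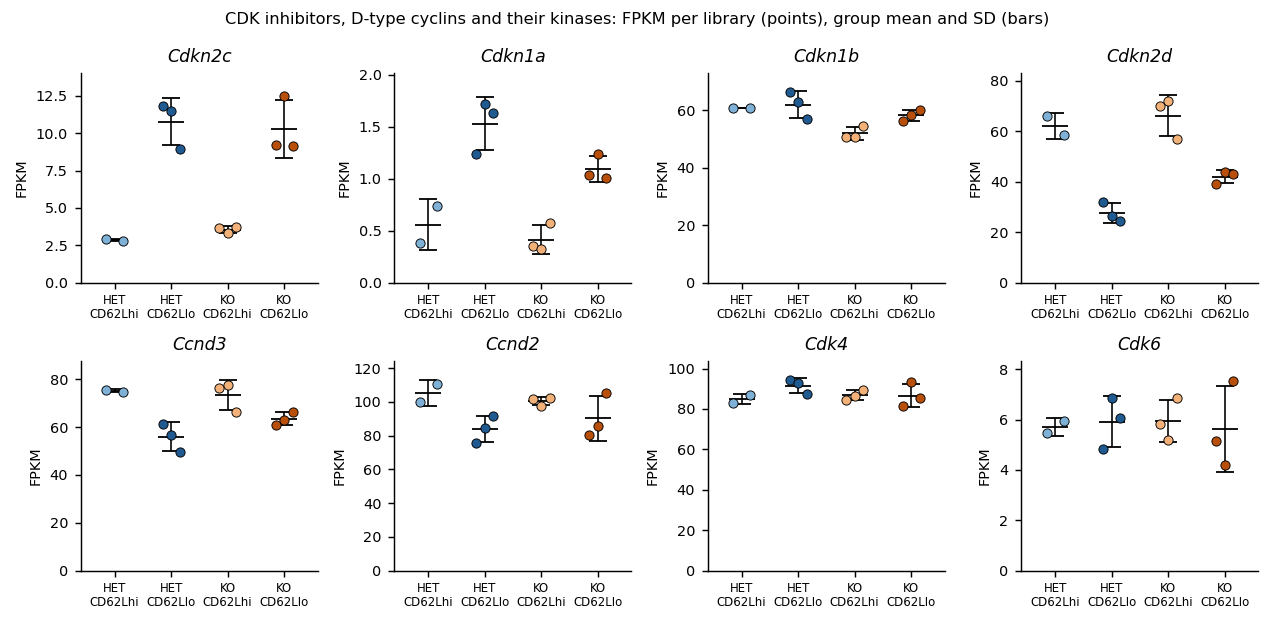
FPKM (y axis, from 0, each panel with its own scale) of the 4 CDK inhibitors and the 4 G1 cyclins and kinases in the 4 groups (x axis), with each library as a point and bars at the group mean and SD. Cdkn2c is high and Cdkn2d low in both CD62Llo groups, and the 3 KO CD62Llo points of Cdkn2d, 38.95, 43.9 and 43.2, lie above the 3 HET CD62Llo points, 31.9, 26.4 and 24.3.

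Of the G1 cyclins and kinases that these inhibitors act on, Ccnd3 was called lower in HET CD62Llo cells and none of the 4 was called in KO. Ccnd3 (chr17:47505051-47599688), cyclin D3, was at 75.7 and 74.8 FPKM in HET CD62Lhi, 61.5, 56.7 and 49.5 in HET CD62Llo, 76.3, 77.7 and 66.5 in KO CD62Lhi and 61.02, 62.9 and 66.4 in the KO CD62Llo group. The fractions did not overlap in HET, and in KO they were separated by a narrow gap between KO CD62Lhi replicate 3 and KO CD62Llo replicate 3. The difference was -0.43 ± 0.095 SE in HET (adjusted p = 0.00844, limma, and 0.0566 without HET CD62Lhi replicate 1) and -0.21 ± 0.085 SE in KO (adjusted p = 0.140). Whether the counting used strand, which bears on Ccnd3 and its neighbour Bysl on the other strand, is not given in the sources used here. Ccnd2, cyclin D2, was the most abundant of this role at 100.1 and 111 FPKM in HET CD62Lhi, 75.8, 84.4 and 91.6 in HET CD62Llo, 102, 97.6 and 102 in KO CD62Lhi and 80.2, 85.5 and 106 in the KO CD62Llo group. Its CD62Llo values were below those of CD62Lhi except in KO CD62Llo replicate 3, the highest of the KO libraries. The averaged difference was -0.25 ± 0.077 SE (adjusted p = 0.0328, limma), and was not called in 9 of 19 alternatives, with adjusted p up to 0.124 without HET CD62Lhi replicate 2. Cdk4, the kinase partner, was at 83.1 and 86.8 FPKM in HET CD62Lhi, 94.5, 92.8 and 87.5 in HET CD62Llo, 84.7, 86.6 and 89.5 in KO CD62Lhi and 81.6, 93.1 and 85.2 in the KO CD62Llo group, and its differences of 0.11 ± 0.064 SE and -0.0066 ± 0.057 SE did not pass the test (adjusted p = 0.252 and 0.957, limma). Cdk6 was much lower, at 4.21 to 7.53 FPKM, with a log2 difference of 0.035 ± 0.20 SE in HET and -0.090 ± 0.18 SE in KO.

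The MCM2-7 proteins form the ring-shaped helicase that is loaded on replication origins in G1. Of its 6 subunits, Mcm6 was called in both genotypes. Mcm6 (chr1:128331591-128359656) was at 34.6 and 36.2 FPKM in HET CD62Lhi, 56.6, 67.7 and 63.4 in HET CD62Llo, 32.8, 35.01 and 36.1 in KO CD62Lhi and 44.6, 54.3 and 49.7 in the KO CD62Llo group. The lowest CD62Llo value of either genotype was above the highest CD62Lhi value. Its mean was 1.77-fold higher in CD62Llo cells of HET mice and 1.43-fold higher in those of KO mice (log2 difference 0.80 ± 0.094 SE and 0.50 ± 0.084 SE, adjusted p = 2.80e-04 and 0.00379, limma). The differences of the other 5 subunits ran from -0.044 (Mcm7) to 0.28 (Mcm5) in HET and from 0.10 (Mcm4) to 0.26 (Mcm5) in KO, and none of these passed the test. The difference between subunits was not itself tested.

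Mcm5 and Mcm3 passed the test in the average over genotypes and not in either genotype alone. Mcm5 was at 18.02 and 20.8 FPKM in HET CD62Lhi, 24.6, 23.4 and 22.98 in HET CD62Llo, 18.7, 19.6 and 19.5 in KO CD62Lhi and 20.5, 26.6 and 22.9 in the KO CD62Llo group, with no overlap of the fractions in either genotype (averaged difference 0.27 ± 0.066 SE, adjusted p = 0.0115, limma, and 0.0595 without HET CD62Lhi replicate 1). Mcm3 was at 22.6 and 24.3 FPKM in HET CD62Lhi, 30.6, 28.3 and 24.9 in HET CD62Llo, 23.6, 23.7 and 21.9 in KO CD62Lhi and 25.5, 31.6 and 25.9 in the KO CD62Llo group, and again the fractions did not overlap (0.24 ± 0.071 SE, adjusted p = 0.0239, limma). The Mcm3 call was lost by quantile normalization (adjusted p = 0.0539), by median centring (0.0807) and without HET CD62Lhi replicate 1 (0.0926) or KO CD62Lhi replicate 3 (0.0522). Within HET, both passed with the replicate block (0.0474 for Mcm5 and 0.0372 for Mcm3), and Mcm5 passed without KO CD62Llo replicate 1 (0.0339) or 2 (0.0228). Within KO, Mcm5 passed without KO CD62Llo replicate 1 (0.0273), all adjusted p from limma. Mcm2, Mcm4 and Mcm7 ranged over 17.4 to 24.04, 22.7 to 27.5 and 31.1 to 40.6 FPKM.

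**Figure D3:**
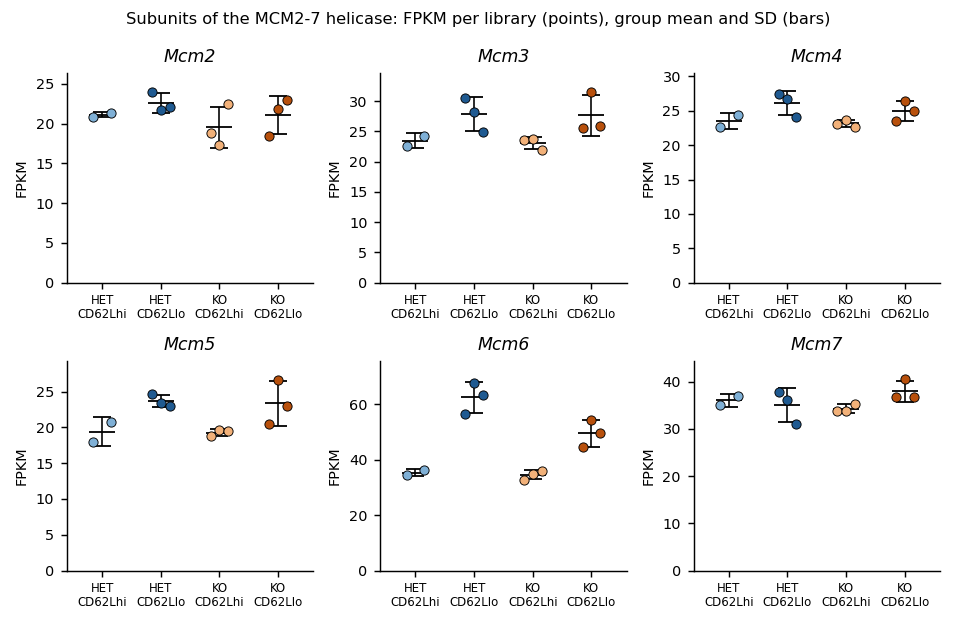
FPKM (y axis, from 0, each panel with its own scale) of the 6 helicase subunits in the 4 groups (x axis), with each library as a point and bars at the group mean and SD. Mcm6 is between 56.6 and 67.7 in HET CD62Llo and between 44.6 and 54.3 in KO CD62Llo, and at or under 36.2 in both CD62Lhi groups, whereas the points of Mcm2, Mcm4 and Mcm7 lie closer together.

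The promoter of Mcm6 is shown because Mcm6 was the replication gene called in both genotypes, and because E2F motifs are known in promoters of this family. The window is the 250 bases before the RefSeq start (GRCm38.p6, chr1:128359706-128359955, minus strand), and it overlaps no annotated exon. Capitals mark 3 matches to the E2F motif TTTNNCGC and 2 to CCAAT, searched on both strands, with 2 of the E2F matches overlapping each other on opposite strands in the first run of capitals.
Mcm6: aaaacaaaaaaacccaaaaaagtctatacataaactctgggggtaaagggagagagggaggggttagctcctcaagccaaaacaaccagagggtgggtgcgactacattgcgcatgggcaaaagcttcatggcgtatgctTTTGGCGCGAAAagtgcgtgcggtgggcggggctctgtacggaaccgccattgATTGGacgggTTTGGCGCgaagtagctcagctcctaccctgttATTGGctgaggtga
The E2F motif was found in promoters of this length for 4.94% of all 27025 genes in the table, and for 4 of the 11 replication genes with an entry. Of the MCM genes with an entry, Mcm5 and, at 1 of its starts, Mcm7 also held an E2F match, while Mcm2 and Mcm3 held no E2F match in the window. A match describes the sequence and says nothing of binding in these cells.

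Tyms, Rrm2 and Pcna stand for nucleotide supply and the replication fork. Tyms, which makes the thymidylate needed for DNA synthesis, was at 10.1 and 11.2 FPKM in HET CD62Lhi, 13.2, 14.7 and 13.1 in HET CD62Llo, 11.2, 11.2 and 10.8 in KO CD62Lhi and 12.6, 12.9 and 11.9 in the KO CD62Llo group. The fractions did not overlap, and the difference was 0.33 ± 0.067 SE in HET (adjusted p = 0.00529, limma, and 0.0628 without HET CD62Lhi replicate 1) and 0.16 ± 0.060 SE in KO (adjusted p = 0.116). Rrm2, the regulated subunit of ribonucleotide reductase, was at 7.44 and 5.94 FPKM in HET CD62Lhi, 15.4, 10.5 and 7.87 in HET CD62Llo, 5.41, 6.96 and 6.88 in KO CD62Lhi and 7.39, 12.1 and 8.17 in the KO CD62Llo group, with HET CD62Llo replicate 1 and KO CD62Llo replicate 2 the highest. Its averaged difference of 0.54 ± 0.17 SE (adjusted p = 0.0358, limma) was lost in 11 of 19 alternatives, up to an adjusted p of 0.125 without HET CD62Lhi replicate 2. Pcna, the sliding clamp of the replication fork, was the most abundant of the 40 genes, and it was at 126 and 133 FPKM in HET CD62Lhi, 136, 131 and 133 in HET CD62Llo, 120.2, 129.7 and 129 in KO CD62Lhi and 126, 142 and 132 in the KO CD62Llo group. It differed by 0.040 ± 0.061 SE in HET and 0.075 ± 0.055 SE in KO (adjusted p = 0.666 and 0.403, limma).

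E2f1, Uhrf1 and Ccne1 completed this role. E2f1, an activating E2F, was at 2.06 and 2.20 FPKM in HET CD62Lhi, 3.42, 2.81 and 2.87 in HET CD62Llo, 2.17, 2.15 and 2.49 in KO CD62Lhi and 2.25, 3.09 and 3.43 in the KO CD62Llo group, with no overlap of the fractions in HET and overlap in KO. Its averaged difference was 0.31 ± 0.087 SE (adjusted p = 0.0211, limma), and it was lost by quantile normalization (0.262), by median centring (0.0753) and without either HET CD62Lhi library (0.0745 and 0.0508). Uhrf1, which couples DNA methylation to replication, was at 7.10 and 8.08 FPKM in HET CD62Lhi, 10.9, 8.76 and 8.17 in HET CD62Llo, 6.69, 6.86 and 7.61 in KO CD62Lhi and 8.24, 10.3 and 9.34 in the KO CD62Llo group and did not overlap between fractions. It differed by 0.30 ± 0.082 SE on average (adjusted p = 0.0173, limma), with the call lost by quantile normalization (0.0876), by median centring (0.0592) and without HET CD62Lhi replicate 1 (0.0773). Ccne1, cyclin E1, which drives entry into S phase with CDK2, was the one gene of this role called lower. It was at 5.14 and 5.25 FPKM in HET CD62Lhi, 4.97, 3.75 and 3.20 in HET CD62Llo, 4.46, 5.34 and 5.14 in KO CD62Lhi and 3.29, 4.44 and 4.01 in the KO CD62Llo group, and every CD62Llo library was below the CD62Lhi libraries of its genotype. The averaged difference was -0.31 ± 0.099 SE (adjusted p = 0.0345, limma) and was not called in 10 of 19 alternatives, up to 0.0949 without HET CD62Lhi replicate 2.

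The 20 genes of G2 and mitosis mostly did not separate the fractions, and all but Stmn1 had a mean at or below percentile 40.2 of the tested genes. In HET only Mki67, which encodes the proliferation marker Ki-67, was called higher, and in KO none was called. None of the 20 had an unadjusted p under 0.05 in KO (limma), where 3346 of all 11431 tested genes did. Mki67 (chr7:135689788-135716379) was at 6.68 and 4.68 FPKM in HET CD62Lhi, 11.2, 8.90 and 7.67 in HET CD62Llo, 4.83, 5.73 and 6.11 in KO CD62Lhi and 5.37, 8.23 and 6.85 in the KO CD62Llo group. The HET fractions did not overlap, and the KO fractions did. The difference was 0.62 ± 0.19 SE in HET (adjusted p = 0.0400, limma) and 0.24 ± 0.17 SE in KO (adjusted p = 0.399). The call in HET was lost in 11 of 20 alternatives, with adjusted p from 0.0512 without KO CD62Lhi replicate 3 to 0.273 without HET CD62Lhi replicate 2. It was 0.0990 when HET CD62Llo replicate 1 was left out. The averaged difference of 0.43 ± 0.13 SE (adjusted p = 0.0277, limma) was lost in 7 of 19.

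Top2a, the topoisomerase that untangles sister chromosomes, was at 7.49 and 7.10 FPKM in HET CD62Lhi, 13.2, 9.56 and 8.49 in HET CD62Llo, 7.003, 8.80 and 8.04 in KO CD62Lhi and 7.75, 10.7 and 8.43 in the KO CD62Llo group. It differed by 0.44 ± 0.18 SE in HET (adjusted p = 0.0916, limma) and 0.15 ± 0.16 SE in KO (adjusted p = 0.580). Without HET CD62Llo replicate 3, Top2a was called higher in HET CD62Llo (0.56, adjusted p = 0.0482, limma) and on average over the genotypes (0.36, 0.0388). Stmn1, which destabilises microtubules, was the most abundant of this role, at 43.5 and 46.4 FPKM in HET CD62Lhi, 50.1, 33.3 and 29.5 in HET CD62Llo, 40.6, 48.1 and 45.3 in KO CD62Lhi and 34.4, 47.8 and 42.3 in the KO CD62Llo group. Its fractions overlapped, and neither difference passed the test (-0.28 ± 0.20 SE and -0.11 ± 0.18 SE, adjusted p = 0.332 and 0.737, limma). Without HET CD62Llo replicate 1, Stmn1 was called lower in HET CD62Llo (-0.50, adjusted p = 0.0317).

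The mitotic kinases and cyclins were low. Cdk1, the kinase that triggers mitosis, ranged over 1.20 to 3.35 FPKM, and its cyclins Ccna2, Ccnb1 and Ccnb2 over 3.24 to 6.43, 1.10 to 4.16 and 2.80 to 8.09. The kinases Plk1, Aurka and Aurkb ranged over 1.55 to 4.83, 1.77 to 3.58 and 1.67 to 4.38 FPKM. Bub1b and Cdc20, of the spindle checkpoint and its target, ranged over 2.18 to 4.77 and 2.89 to 8.10, and Foxm1, the transcription factor of many G2 genes, over 1.49 to 2.63. The chromosomal passenger genes Birc5 and Cdca8 ranged over 4.44 to 12.6 and 3.16 to 8.19 FPKM. The spindle genes Kif11, Kif20a, Nusap1, Tpx2 and Cenpe ranged over 1.97 to 4.27, 2.09 to 3.38, 1.16 to 3.76, 1.52 to 3.32 and 0.854 to 1.60 FPKM. Among all tested genes the mean of Cdk1 stood at percentile 11.4, that of Mki67 at percentile 34.1 and that of Mcm6 at percentile 85.2. The median log2 fraction difference of the 20 genes was 0.21 in HET and 0.12 in KO, and fell to 0.030 and -0.0035 after quantile normalization, so that the sign of the KO median depended on the scale. The median over all tested genes fell as well, from 0.068 to -0.033 in HET and from 0.050 to -0.023 in KO.

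The mitotic genes moved together from library to library. Their summed FPKM was 112 and 100.3 in HET CD62Lhi, 162, 100.3 and 85.3 in HET CD62Llo, 95.2, 116 and 102 in KO CD62Lhi and 92.4, 136 and 102 in the KO CD62Llo group. HET CD62Llo replicate 1 was thus the highest of its group and KO CD62Llo replicate 2 of its own, while the other 4 CD62Llo sums lay between 85.3 and 102 and the CD62Lhi sums between 95.2 and 116. Stmn1 made up 30.96% to 46.2% of these sums. Without it, a sum chosen after the data were seen, HET CD62Llo replicate 1 was at 111.7 and KO CD62Llo replicate 2 at 88.7 FPKM, and the other 4 CD62Llo libraries, at 55.8 to 67.0, overlapped the CD62Lhi libraries, at 53.9 to 68.9. Within its group, HET CD62Llo replicate 1 held the highest value for 20 of the 20 genes, KO CD62Llo replicate 2 for 19, HET CD62Lhi replicate 1 for 19 and KO CD62Lhi replicate 2 for 16. Once the group means were removed, the pairwise correlation of log2 levels over the 11 libraries was positive for all 190 pairs of mitotic genes, with a median r of 0.87 and a range of 0.38 to 0.98. For the 12 replication genes the median was 0.57, with 62 of 66 pairs positive. The genes of a pair share their libraries, and these correlations are a description.

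The libraries with high mitotic levels also had other values at the end of their group. The summed myeloid markers were highest of their group in HET CD62Llo replicate 1 and KO CD62Llo replicate 2, at 103 and 282 FPKM. In the CD62Lhi groups they were highest in HET CD62Lhi replicate 1 and KO CD62Lhi replicate 2, at 21.8 and 17.03 FPKM. These 2 libraries also held most of the highest mitotic values of their groups. The summed plasma cell markers were 13.2 and 5.76 in HET CD62Lhi, 17.2, 6.996 and 8.29 in HET CD62Llo, 8.86, 9.07 and 11.1 in KO CD62Lhi and 13.3, 12.1 and 6.56 in the KO CD62Llo group, highest in HET CD62Llo replicate 1 but not in KO CD62Llo replicate 2. The part of other cells in the mitotic levels was not tested.

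**Figure D4:**
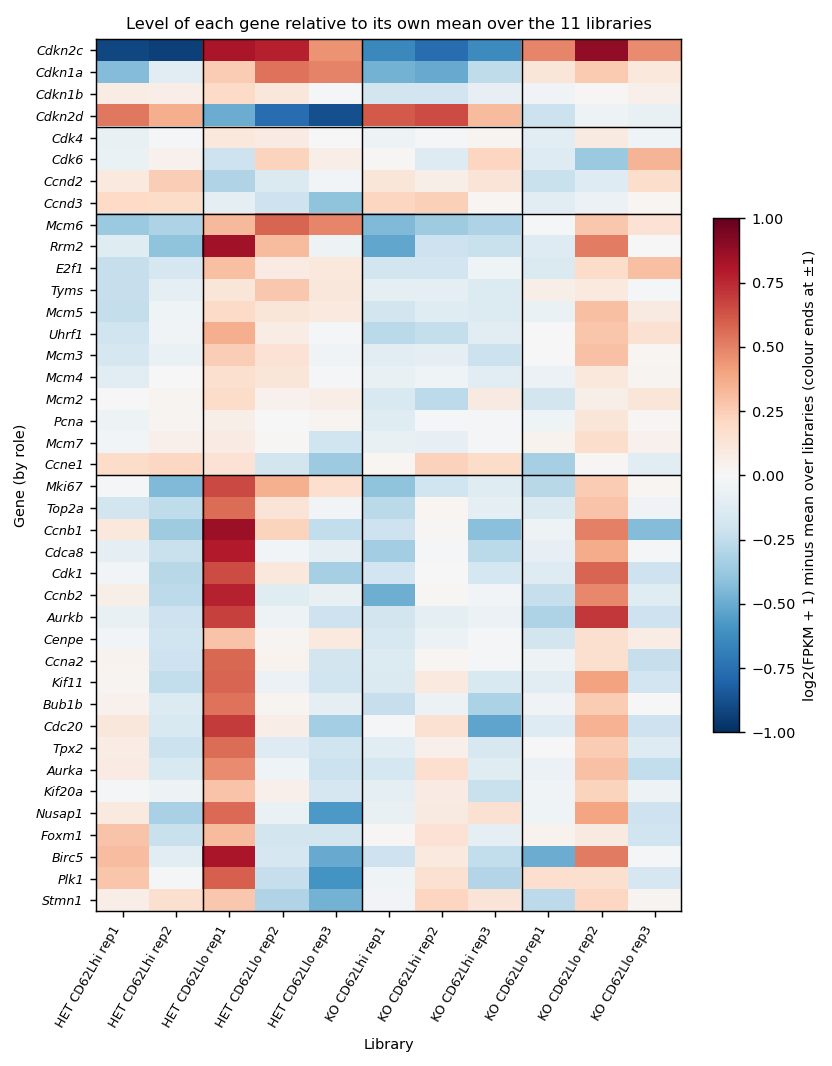
Deviation of each gene (rows, by role) from its own mean over the 11 libraries (columns, by group) on the log2(FPKM + 1) scale, red above and blue below, with the colour ending at 1 in either direction. The 20 mitotic genes in the lowest block are red together in HET CD62Llo replicate 1 and in KO CD62Llo replicate 2, and Cdkn2c and Cdkn2d in the top block follow the fractions.

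The promoters of 3 mitotic genes are shown because these genes moved together across libraries. A second reason is that mitotic promoters are known for paired CCAAT boxes and cell cycle homology regions (CHR). Of these elements, the CHR is the one that the DREAM and MYB-FOXM1 complexes use. Each line is the 250 bases before the RefSeq start (GRCm38.p6, minus strand, no annotated exon), for Top2a at chr11:99024190-99024439, Mki67 at chr7:135716380-135716629 and Ccnb2 at chr9:70421555-70421804. Capitals mark CCAAT and the CHR letters TTTGAA or TTCGAA on either strand.
Top2a: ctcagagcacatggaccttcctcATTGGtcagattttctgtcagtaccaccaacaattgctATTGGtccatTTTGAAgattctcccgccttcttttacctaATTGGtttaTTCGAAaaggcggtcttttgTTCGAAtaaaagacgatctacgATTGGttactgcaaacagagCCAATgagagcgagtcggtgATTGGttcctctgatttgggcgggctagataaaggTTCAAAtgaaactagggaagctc
Mki67: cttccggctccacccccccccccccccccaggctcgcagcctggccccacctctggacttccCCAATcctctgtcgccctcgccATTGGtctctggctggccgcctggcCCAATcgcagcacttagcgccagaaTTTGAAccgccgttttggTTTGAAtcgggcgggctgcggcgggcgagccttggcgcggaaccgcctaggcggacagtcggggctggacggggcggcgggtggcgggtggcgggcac
Ccnb2: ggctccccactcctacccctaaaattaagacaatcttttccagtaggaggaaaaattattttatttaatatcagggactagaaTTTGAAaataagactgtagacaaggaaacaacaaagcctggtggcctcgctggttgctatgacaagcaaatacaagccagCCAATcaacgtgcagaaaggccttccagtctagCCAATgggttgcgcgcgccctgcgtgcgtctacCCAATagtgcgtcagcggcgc
Top2a held 6 CCAAT and 4 CHR matches, Mki67 held 3 and 2, and Ccnb2 held 3 and 1. The CHR match of Ccnb2 began 167 bases before the start, upstream of its CCAAT matches at 87, 54 and 21. Whether the marked letters act as a CHR was not tested. Of the 14 mitotic genes with an entry, 12 held CCAAT and 7 held both, beside 37.49% and 7.001% of all 27025 genes with promoters of this length. Of the 4 CDK inhibitors, 2 held CCAAT and none held the CHR or E2F letters in this window. In all, 32 of the 40 genes had a promoter entry.

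Between KO and HET cells, few genes were called among the 40 or among all tested genes. In CD62Llo cells 1 of the 40 genes was higher in KO than in HET, Cdkn2d, where 1.36% of all tested genes were higher, and none was lower, where 3.25% of all genes were lower (limma). At an unadjusted p under 0.05 the count was 3 of the 40, where 2160 of all 11431 tested genes passed (limma). These counts are from the fit without pairing. With the replicate number as a block, Cdkn2d stayed higher and Mcm6 was called lower (adjusted p = 0.0148, limma). Over all tested genes the block called 230 higher and 525 lower, instead of 155 and 371. Cdkn2d was at 38.95, 43.9 and 43.2 FPKM in KO CD62Llo and 31.9, 26.4 and 24.3 in HET CD62Llo, so that the groups did not overlap. The mean was 1.53-fold higher in KO (log2 difference 0.60 ± 0.12 SE, adjusted p = 0.0212, limma). The call was lost with only the CD62Llo groups in the fit (0.0725) and without HET CD62Llo replicate 2 (0.0845) or 3 (0.0682), or KO CD62Llo replicate 1 (0.0540) or 3 (0.0680). In CD62Lhi cells Cdkn2d differed by 0.083 ± 0.13 SE between genotypes (adjusted p = 1, limma), and the fraction difference of Cdkn2d was not shown to depend on genotype (interaction 0.52 ± 0.17 SE, adjusted p = 0.500).

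Mcm6 was next. It was lower in KO than in HET CD62Llo cells, 49.5 ± 4.85 (SD, n = 3) against 62.6 ± 5.64 (SD, n = 3) FPKM, without overlap, but the difference of -0.33 ± 0.084 SE did not pass the test (adjusted p = 0.0608, limma). With the replicate number as a block it did (-0.33, adjusted p = 0.0148), as it did without HET CD62Llo replicate 1 (0.0360) or KO CD62Llo replicate 2 (0.0332). The interaction was -0.30 ± 0.13 SE (adjusted p = 0.633, limma). Mki67 differed by -0.39 ± 0.17 SE (adjusted p = 0.261), Cdkn1a by -0.27 ± 0.13 SE (adjusted p = 0.287) and Cdkn2c by -0.064 ± 0.13 SE (adjusted p = 0.828), all with overlapping groups. The median over the 40 genes was -0.069, beside -0.028 over all genes. The sign of the median over all genes depended on the scale. It was 0.0070 after quantile normalization and 0.0112 after median centring.

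In CD62Lhi cells no gene of the 40 was called between genotypes, where 0% of all tested genes were called in either direction. Beside 328 of all 11431 tested genes, 1 of the 40 had an unadjusted p under 0.05 (limma). That gene was Cdkn1b, which was at 60.8 and 60.7 FPKM in HET CD62Lhi and 50.8, 50.5 and 54.6 in KO CD62Lhi, a difference of -0.22 ± 0.067 SE (adjusted p = 1, limma). No gene of the 40 had an interaction of fraction and genotype that passed the test, where 0.00875% of all genes had one called higher and 0% lower. For the interaction 2 of the 40, Cdkn2d and Mcm6, had an unadjusted p under 0.05, where 868 of all 11431 tested genes did (limma). Averaged over both fractions, no gene of the 40 was called between genotypes, where 0.359% of all genes were higher and 1.11% lower. In this average 3 of the 40 (Cdkn2d, Cdkn1b and Mcm6) had an unadjusted p under 0.05, where 1695 of all 11431 tested genes did (limma). The adjusted p of Cdkn2d in that comparison was 0.0972 (limma). The fraction and genotype comparisons share libraries, so they are not independent of each other.

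A wider list of 177 other cell cycle genes in 11 groups, 156 of them tested, gave the surroundings of the module. In HET 29 of the 156 were higher in CD62Llo cells and 3 lower, against 18.8% and 8.88% of all tested genes. In KO 14 were higher and 1 lower, against 11.9% and 4.26%. The same shares stand beside the counts of each group below, and nothing more is read from those counts. The median log2 difference was 0.20 in HET and 0.12 in KO. On average over the genotypes 48 were higher and 9 lower, where 25.5% of all tested genes were higher and 11.6% lower. Genes that led their group only in this average were Tk1 (0.58), Chaf1a (0.49), Hmgb2 (0.35), Mcm10 (0.33), Cdc6 (0.32), Cenpk (0.32), Incenp (0.29), Btg1 (0.17) and, downward, Kifc1 (-0.32).

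Among other cyclin and CDK genes, 3 of 12 rose in HET: Cks2, a CDK subunit (0.92, adjusted p = 0.00492, limma), Wee1, the kinase that inhibits CDK1 (0.66, 0.00101), and Ccng2 (0.28, 0.0438). In KO, Cks2 (0.57, adjusted p = 0.0445, limma) and Wee1 (0.41, 0.0116) rose and Cdk2 fell (-0.24, 0.0449). Of 17 genes of the RB, E2F and DREAM group, 4 rose and 1 fell in HET. The RB relative Rbl2 (p130), which holds E2F genes silent in quiescent cells, rose by 0.72 (adjusted p = 7.46e-04, limma), Tfdp1, the partner of E2F proteins, rose by 0.48 (0.00183), and Myc, a driver of cell growth, changed by -0.57 (0.00103). In KO 1 of the 17 rose, Tfdp1 (0.26, adjusted p = 0.0343, limma). Of 5 other antiproliferative genes, 1 fell in HET, Tob1 (-0.51, adjusted p = 5.50e-04, limma), and none was called in KO.

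In the replication groups, 1 of 16 origin genes rose in each genotype, the GINS subunit Gins2 (0.71 in HET and 0.58 in KO, adjusted p = 0.0115 and 0.0277, limma). Of 27 replication fork genes, 6 rose and 1 fell in HET, led by the polymerase subunit Pola1 (0.60), the remodeller Hells (0.58) and, downward, Timeless (-0.55). In KO 2 of the 27 rose, Rfc3 (0.45) and Pold3 (0.39). Of 7 nucleotide supply genes, Dck (0.49) and Rrm1 (0.39) rose in HET and Dck (0.38) in KO. Among checkpoint and repair genes, Fancd2 rose in HET (0.55).

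In the mitotic groups, 2 of 13 kinetochore genes rose in HET, Zwint (0.44) and Mad2l1 (0.37), and Zwint alone in KO (0.42). Of 16 kinesin and cytokinesis genes, Racgap1, a regulator of cytokinesis, rose in both genotypes (0.91 and 0.62, adjusted p = 0.00128 and 0.00965, limma), and Ckap5 in HET (0.28). Of 22 condensin, cohesin and mitotic exit genes, Melk (0.49), Lmnb1 (0.48) and Smc2 (0.32) rose in HET and none was called in KO. Of 11 genes of the p53 pathway, 5 rose in HET and 4 in KO, among them Trp53inp1 (0.74 and 0.50), Ei24 (0.74 and 0.44), Ccng1 (0.68 and 0.37) and Sesn2 (0.46 and 0.45). All values in parentheses are log2 differences that passed limma's test.

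Between genotypes, 4 of the 156 genes were called in CD62Llo cells. Of these, 1 was higher in KO, where 1.36% of all tested genes were higher, and 3 were lower, where 3.25% were lower. Rbl2 was at 34.6 and 32.98 FPKM in HET CD62Lhi, 59.1, 55.5 and 54.5 in HET CD62Llo, 25.98, 30.9 and 25.01 in KO CD62Lhi and 29.7, 36.2 and 31.2 in the KO CD62Llo group, so that the HET CD62Llo libraries stood above the other 3 groups. It was lower in KO than in HET CD62Llo cells by a log2 difference of -0.78 ± 0.091 SE (adjusted p = 0.00320, limma), a call kept in 20 of 20 alternatives, and it was the one gene of the 156 called between genotypes averaged over the fractions (-0.54, adjusted p = 0.0110). Wee1 (-0.41, adjusted p = 0.0326, limma) and Ccng1 (-0.31, 0.0285) were also lower, and Myc was higher (0.35, 0.0341). In CD62Lhi cells none of the 156 was called between genotypes, and none had a called interaction. At an unadjusted p under 0.05 (limma) were 3 and 9 of them, beside 328 and 868 of all 11431 tested genes. Averaged over the fractions, 0.359% of all tested genes were higher and 1.11% lower between genotypes.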

How the data were processed

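Gene-level FPKM, 1 table per library, were deposited by the authors with an interval for each value. They were made from poly(A)-selected TruSeq libraries read as single ends of 50 bp. Of tools, the submitters' processing notes name Cufflinks 2.1.1, TopHat without a version, CASAVA 1.8.2 and FastQC, with mm10 as the build and no settings. Reads per library are not in the tables, so the depth is unknown and the authors' intervals are the precision given. The authors' pooled group means and the third HET CD62Lhi library, which they left out for few reads, were not used.

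From these values, entries of a symbol listed more than once were summed, and genes with FPKM of at least 1 in at least 2 of the 11 libraries were kept (11431 genes). log2(FPKM + 1) was fitted with limma 3.58.1 in R 4.3.3 as 4 group means in 1 fit, with empirical Bayes and trend. P-values were adjusted by Benjamini-Hochberg over all genes tested, with a threshold of 0.05. The 7 comparisons were the fractions in each genotype, the genotypes in each fraction, the interaction and both averages. The fit was tested on simulated data, but the outcome is not given here and no result rests on it. Alternatives were other pseudocounts (0.1 and 5), no filter, a filter at 5 FPKM, quantile normalization, median centring, only the groups compared, no trend, a replicate block and leaving out each library.

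Same-numbered KO and HET CD62Llo libraries deviated together from their group means (r = 0.165, 0.153 and 0.148 over genes), so the numbers were taken to pair them. The pairing comes from these correlations alone, since the labels name no shared litter or day. Same-numbered libraries of the 2 fractions gave r of 0.1345 and 0.073 in HET and 0.131, 0.068 and 0.178 in KO. Between genotypes in CD62Lhi cells the values were 0.075 and -0.032. Not every pair of these other comparisons passed 0.1, so they were not taken as paired. The labels do not say whether fractions with the same number came from the same mice. The main fit did not use the pairing. The replicate block did, over the numbers of all groups.

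The 40 members, the 11 groups of other cell cycle genes and the 7 marker lists (Treg, B cell, plasma cell, CD8 T and NK cell, myeloid, erythroid and thymocyte) were chosen with earlier results of these data known. All 40 members are named. Values in every library are given for members called in any comparison and for the 2 most abundant of each role. From each other group, up to 3 called genes per comparison are named by size of change. Some genes are not reported here. Promoters are from RefSeq (GRCm38.p6).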

Additional observations from a re-analysis of the deposited data

How the results depend on the processing

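With 2 or 3 libraries a group and unknown depth, small changes of low genes such as Cdk1 or Cdkn1a are limited by precision. Cdkn2c, Cdkn2d and Mcm6 kept their direction and their call between fractions in both genotypes under every alternative run, while the other calls were lost under at least 1 in HET or KO. No called member changed sign. Median centring gave 4 lower members in HET instead of 2 and 2 in KO instead of 1. On average over the genotypes, quantile normalization and median centring each gave 5 higher members instead of 10, and no filter gave 2 lower instead of 4. Between genotypes in CD62Llo cells, the replicate block called 1 member lower (Mcm6) instead of 0. With only the groups compared, 0 were higher instead of 1. The block was fitted to the numbers of all groups, including those not taken as paired. The block moved no other count of members by more than 1.5 times. Calls gained under at least 1 alternative were Ccnd2, Ccne1, E2f1, Mcm3, Mcm5, Rrm2, Stmn1 and Top2a in HET and Ccnd3, E2f1, Mcm5, Tyms and Uhrf1 in KO. The cause of these shifts was not tested.

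Leaving out each library in turn gave 3 to 7 higher and 1 to 4 lower members in HET, 2 to 6 higher and 1 lower in KO, 5 to 13 higher and 2 to 4 lower on average over the genotypes, and 0 to 1 higher and 0 to 1 lower between genotypes in CD62Llo cells. The lowest counts in HET, 3 higher and 1 lower, came without HET CD62Lhi replicate 1, which left 1 library in that group whose spread was assumed to be like that of the others. Without HET CD62Llo replicate 1 there were 4 lower in HET, and without KO CD62Llo replicate 1 there were 6 higher in KO. On average over the genotypes, 5 were higher without HET CD62Lhi replicate 1, and 2 were lower without HET CD62Lhi replicate 2, HET CD62Llo replicate 2, KO CD62Lhi replicates 2 or 3, or KO CD62Llo replicate 1. The comparison of genotypes in CD62Lhi cells, the interaction and the averaged genotype difference stayed at 0 members in every refit. The fit with only the groups compared was not run for the interaction and the averages, which use all groups.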
